A study of Mus musculus with 24 samples.

Results

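The regions described here are the H3K4me3 peaks that mouse retina had gained by postnatal day 17 (P17): peaks of the P17 H3K4me3 list that share no base with any peak of the postnatal day 2 (P2) H3K4me3 list. There were 1390 of them among 9629 P17 H3K4me3 peaks, which is 14.4%. The other 8239 P17 peaks overlapped a P2 peak by 1 bp or more and are called kept, and 885 of the 9134 P2 peaks overlapped no P17 peak and are called lost. The members were chosen by absence from the P2 list, so their H3K4me3 at either age is a description and not a finding. Their position, their H3K27ac and their promoter sequence were not used to choose them.

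The profiles came from CUT&RUN, in which an antibody-directed nuclease releases the DNA around a chromatin protein for sequencing. Retinas were wild type, taken at P2 or P17, with 600000 nuclei per reaction. H3K4me3, H3K27ac, SOX9 and nonspecific IgG each had 2 libraries per age, and SOX8 had 4, from a pair of antibodies. The study deposited 1 peak list per target and age, 8 in all and without replicate values, so no replicate error could be computed and no test between ages was made. Each share of peaks below therefore describes the lists as they stand, with a 95% Wilson interval that covers counting error only. Nothing in the labels says whether a replicate was a separate animal, and the number of reads behind a list is unknown. Both ages are whole retina, so more cells of a type and more of a mark per cell cannot be told apart.

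H3K4me3, trimethylation of lysine 4 of histone H3, sits at the start of genes that are being transcribed or are ready to be. H3K27ac, acetylation of lysine 27 of the same histone, marks active promoters and active enhancers, so its presence at P2 is a sign of activity before H3K4me3 was listed. Between the first days after birth and the third week, the mouse retina stops dividing, most rods and bipolar cells are completed, photoreceptors build their outer segments and ribbon synapses, and the eyes open.

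The promoters below belong to genes whose start lay in a gained peak. They were picked for holding the motif TAATCC, to show it at photoreceptor and bipolar genes, and most gained starts lack it: it was present at 78 of 952 of them (8.19%) and at 13 of the 40 on the gene lists. Each is the 150 bases before a RefSeq gene start (assembly GRCm38.p6), read in the direction of the gene. Capitals mark TAATCC, or GGATTA where it lies on the other strand, the core sequence that the photoreceptor homeodomain proteins CRX and OTX2 are known to bind. Gngt1 encodes the gamma subunit of rod transducin, Cngb1 the beta subunit of the rod cyclic nucleotide-gated channel, Guca1a a guanylate cyclase activator, and Abca4 a retinoid transporter of the outer segment. Lrit1 encodes a leucine-rich repeat protein of the photoreceptor synapse, and Trpm1 the cation channel of ON bipolar cells.
Gngt1 chr6:3993858-3994007 (+ strand): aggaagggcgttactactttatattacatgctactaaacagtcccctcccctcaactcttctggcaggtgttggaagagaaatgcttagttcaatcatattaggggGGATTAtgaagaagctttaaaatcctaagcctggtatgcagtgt
Cngb1 chr8:95306586-95306735 (- strand): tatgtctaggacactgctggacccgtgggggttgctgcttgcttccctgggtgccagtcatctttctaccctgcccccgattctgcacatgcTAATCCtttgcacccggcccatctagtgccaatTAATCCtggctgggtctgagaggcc
Guca1a chr17:47400607-47400756 (- strand): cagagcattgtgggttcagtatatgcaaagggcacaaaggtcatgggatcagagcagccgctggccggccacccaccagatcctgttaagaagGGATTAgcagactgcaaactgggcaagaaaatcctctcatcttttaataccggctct
Abca4 chr3:122044310-122044459 (+ strand): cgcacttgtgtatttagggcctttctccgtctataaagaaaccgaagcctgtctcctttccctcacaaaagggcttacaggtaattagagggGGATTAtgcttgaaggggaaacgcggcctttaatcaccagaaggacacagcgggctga
Lrit1 chr14:37054680-37054829 (+ strand): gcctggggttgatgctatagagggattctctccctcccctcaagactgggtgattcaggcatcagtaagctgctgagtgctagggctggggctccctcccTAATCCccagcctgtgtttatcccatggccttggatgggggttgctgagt
Trpm1 chr7:64153685-64153834 (+ strand): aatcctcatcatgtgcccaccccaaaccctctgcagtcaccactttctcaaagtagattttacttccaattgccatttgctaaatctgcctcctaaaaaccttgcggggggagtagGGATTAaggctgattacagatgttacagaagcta
Counted from the gene start, the capitals begin at -44 in Gngt1, at -58 and -25 in Cngb1, at -57 in Guca1a, at -58 in Abca4, at -50 in Lrit1 and at -34 in Trpm1. A match is a description of the letters and not a measured binding site. The promoter of Isl1, a LIM homeodomain factor of bipolar and other retinal neurons, is shown for its content of CG, here with every CG in capitals. It also holds TAATCC, at -177, upstream of the bases printed.
Isl1 chr13:116309689-116309838 (- strand): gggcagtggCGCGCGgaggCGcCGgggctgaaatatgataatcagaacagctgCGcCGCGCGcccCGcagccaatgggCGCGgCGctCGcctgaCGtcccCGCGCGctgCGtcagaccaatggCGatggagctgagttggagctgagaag
The Isl1 promoter held 37 CG pairs over the 300 bp window of the table and had a ratio of observed to expected CG of 1.05. In Gngt1 the window held 4 such pairs, with a ratio of 0.286. Both genes gained a peak that had no P2 H3K27ac, so these 2 promoter types are both found among the gained peaks.

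Gained peaks lay at gene starts less often than kept peaks, and inside genes more often. By the peak's centre, 794 gained peaks (57.1%, interval 54.5 to 59.7) lay within 1 kb of a protein-coding gene start, against 77.7% of kept peaks and 74.8% of all P17 peaks. The centre of 435 gained peaks (31.3%, interval 28.9 to 33.8) lay in a gene body, against 18.8% of kept and 20.6% of all P17 peaks. A further 114 gained peaks (8.2%) lay outside genes within 50 kb of an end, against 2.37% of kept and 3.21% of all. Only 34 (2.45%) were farther from genes, against 0.449% of kept and 0.737% of all, and 13 (0.935%) lay at the other end of a gene, against 0.607% and 0.654%. Lost peaks fell between the other groups, with 67% at starts and 24.6% in gene bodies. The classes depend on the distance: at 500 bp, 34.9% of gained peaks were at a start and 53.4% in gene bodies, and at 2000 bp 69.5% and 19%.

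**Figure D1:**
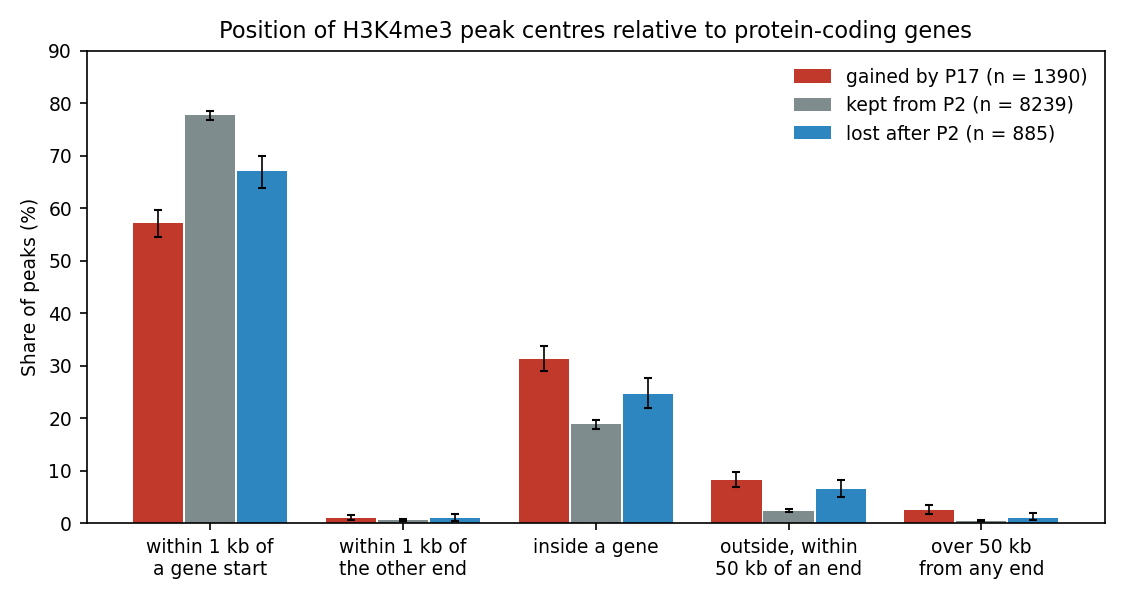
Share of H3K4me3 peaks (%, vertical axis) by where the peak centre lies relative to protein-coding genes, for 1390 gained, 8239 kept and 885 lost peaks; bars are shares and lines are 95% Wilson intervals for counting error only. Gained peaks have the lowest bar at gene starts (57.1%) and the highest inside genes (31.3%).

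Much of the gene body class was made of wide peaks that ran from a start into the gene. When a peak was counted by whether it covered a gene start anywhere along its length, a definition added after the values were seen, 1008 gained peaks (72.5%) did so, against 93.8% of kept and 90.7% of all P17 peaks. Another 239 gained peaks (17.2%) touched a gene but no start, against 3.82% of kept peaks, and 143 (10.3%) touched no gene, against 2.39%. Of the 239, 119 (49.8%) lay in a gene that already had a P2 H3K4me3 peak at one of its ends, close to the 43.8% of all protein-coding genes that had one. Of the 382 gained peaks without a protein-coding start, 61 (16%) covered the start of a long noncoding RNA gene, against 125 of 512 such kept peaks (24.4%).

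Gained peaks were somewhat narrower than kept peaks at the median, but held more of both very wide and very narrow regions. Their median width was 3226 bp (quartiles 2474 and 4584 bp, range 873 to 20314 bp), against 3756 bp for kept and 3457 bp for lost peaks, and together they covered 5.32 Mb. A width of 10 kb or more was reached by 31 gained peaks (2.23%) and by 1.48% of kept peaks, while 133 gained peaks (9.57%) and 2.5% of kept peaks were under 2 kb. Width went with position: the median was 2750 bp for gained peaks centred at a start and 4644 bp for those centred in a gene body. Among the 348 narrowest gained peaks 82.2% were centred at a start, and among the 348 widest 21.8%.

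Around a start, gained peaks were not symmetric. For 781 gained peaks that held the start of a single gene of known strand, the peak reached a median of 948 bp upstream (quartiles 683 and 1297 bp) and 1933 bp downstream (1458 and 2894 bp). It reached farther into the gene than away from it in 721 of them (92.3%), against 89.7% of 5340 kept peaks, whose medians were 1279 and 2313 bp. In 47 gained peaks (6.02%, kept 5.19%) the mark ran 5 kb or more into the gene, and in 13 (1.66%, kept 2.64%) it covered the whole gene. Fscn2, which encodes the actin-bundling protein retinal fascin, and Bhlhe23, which encodes a bipolar transcription factor, were covered whole, by peaks of 10457 and 3860 bp.

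Most gained peaks stood well apart from any H3K4me3 of P2. The median gap to the nearest P2 H3K4me3 peak was 49.6 kb (quartiles 17.7 and 130 kb), and 434 (31.2%) were over 100 kb away. Only 14 (1.01%) lay within 1 kb of a P2 peak and 112 (8.06%) within 5 kb. Just inside the rule were the peaks at Zfr2, with a gap of 405 bp, Ppp3r1 with 415 bp, Nfe2l1 with 585 bp, Pfas with 667 bp and Bpnt1 with 711 bp. Just outside it were kept peaks at B3galt4, with 514 bp shared, and at Ssu72 with 585 bp, and 2 narrow peaks by Lrrc4c of 300 and 589 bp that were shared in full.

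H3K27ac was already listed at most of these regions at P2. Of the gained peaks, 1218 (87.6%, interval 85.8 to 89.3) overlapped a P2 H3K27ac peak, against 98.5% of kept, 94.8% of lost and 96.9% of all P17 H3K4me3 peaks. The reverse count was 172 gained peaks (12.4%) without P2 H3K27ac, against 1.49% of kept and 5.2% of lost peaks. Coverage was also lower: P2 H3K27ac covered a median of 59.3% of a gained peak, 65% of a kept peak and 77.2% of a lost peak. At least 50% of the peak was covered in 58.5% of gained, 75.6% of kept and 79% of lost peaks. Several separate P2 H3K27ac peaks touched one gained peak in 241 (19.8%) of the 1218, near the 17% of kept and 18.4% of lost peaks.

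The P2 H3K27ac list is long, and that bears on these shares. It held 287845 peaks over 525 Mb, whereas the P17 H3K27ac list held 29909 peaks over 173 Mb. With only the 29909 widest P2 H3K27ac peaks, each at least 3265 bp, the overlap fell to 21.2% of gained peaks (interval 19.1 to 23.4), 25.8% of kept and 38.2% of lost peaks. Gained peaks had the lowest share under both lists, whereas the order of kept and lost peaks changed.

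At P17, H3K27ac was listed at about as large a share of gained peaks but spread over more of each. It overlapped 1208 gained peaks (86.9%, interval 85 to 88.6), against 90.8% of kept, 28.7% of lost and 90.2% of all P17 peaks. The median coverage was 99.4% of a gained peak and 85.3% of a kept peak, and 679 gained peaks (48.8%) were covered in full, against 28.8% of kept peaks. H3K27ac was listed at both ages at 1093 gained peaks (78.6%), at P2 alone at 125 (8.99%), at P17 alone at 115 (8.27%) and at neither age at 57 (4.1%). Among kept peaks the same shares were 89.9, 8.57, 0.874 and 0.619%, so the classes without P2 H3K27ac were the ones rarely seen among kept peaks. Among lost peaks, acetylation at P2 alone was the main class, with 66.2%.

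Gene starts gave the same order as peaks. Of 952 RefSeq starts (833 genes) inside a gained peak, 77.7% (interval 75 to 80.3) lay in P2 H3K27ac and 83.2% in P17 H3K27ac. Of 8587 starts in H3K4me3 at both ages, 96.3% lay in P2 H3K27ac and 91.6% in P17 H3K27ac. Starts with H3K4me3 at neither age lay in P2 H3K27ac in 28.9% of 10906 cases and in P17 H3K27ac in 9.95%, and the share of all 21263 starts in P2 H3K27ac was 60.4%. P2 H3K27ac covered 43.5% of gained starts 1 kb into the gene and 30.1% 1 kb upstream, where P17 H3K27ac covered 73 and 61.9%. Starts marked at both ages also had less at P2 (66.1 and 55.2%) than at P17 (79.4 and 76%), and peaks of the P2 H3K27ac list were narrower in general, with a median of 1166 bp against 3268 bp.

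**Figure D2:**
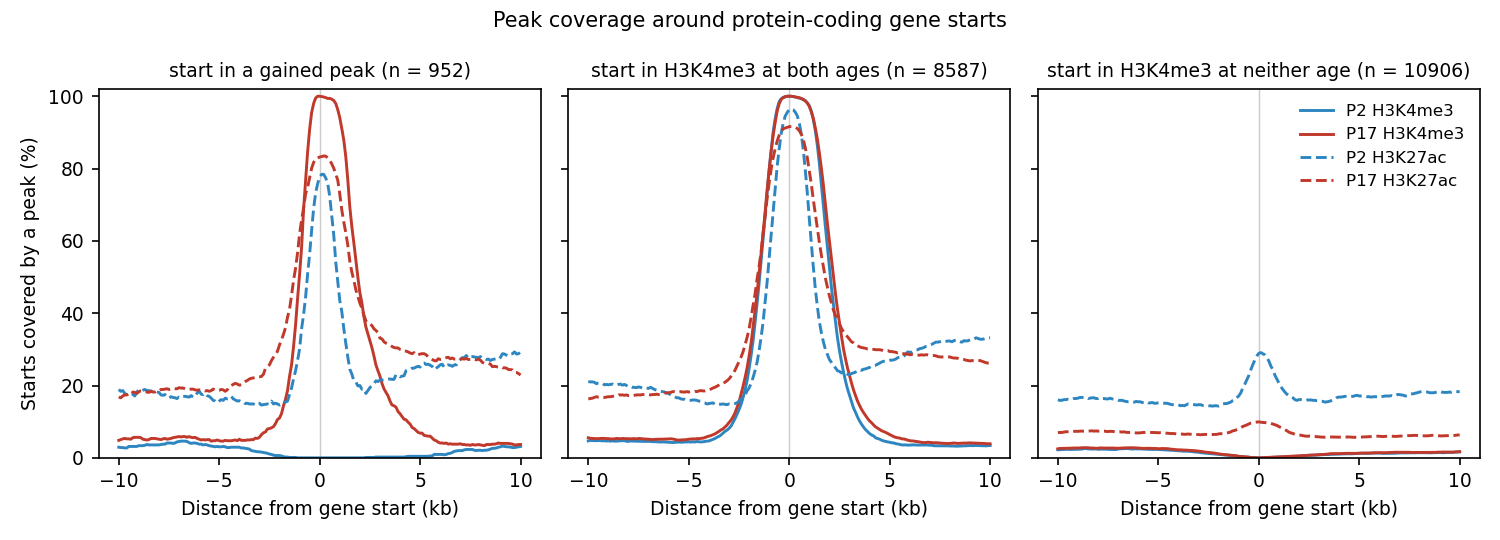
Share of protein-coding gene starts (%, vertical axis) whose surroundings lie in a peak, by distance from the start (kb, positive into the gene), for P2 (blue) and P17 (red) H3K4me3 (solid) and H3K27ac (dashed). At the start itself P2 H3K27ac covers 77.7% of starts in a gained peak, 96.3% of those with H3K4me3 at both ages and 28.9% of those with it at neither age.

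By gene, a gained peak reached within 1 kb of an end of 1079 of 21887 protein-coding genes (4.93%). Of these, 94 (8.71%) also had P2 H3K4me3 at an end, against 43.8% of all protein-coding genes, and 10 more were reached by a kept P17 peak but not by a P2 peak. Another 762 genes (3.48%) had only a P2 peak there that was lost. In the gene lists of retinal cell types and functions, that background is the value to read each count against, and each list is small. The members of each list and their counts are a description, because the lists were drawn up with earlier results of these data known.

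Rod phototransduction, the cascade that turns light into a change of membrane current, had the greatest share. Its list had 14 of 20 genes (70%) with a gained peak at an end, 5 with a kept peak and 1 with none. The rod transducin alpha gene Gnat1 lay under a peak of 14661 bp that also reached its neighbour Sema3f. The rod receptor kinase gene Grk1 lay under a peak of 15132 bp. Both catalytic subunits of the rod phosphodiesterase had gained peaks, 13547 bp at Pde6a and 13467 bp at Pde6b. Both rod channel subunits had one too, 8058 bp at Cnga1 and 9511 bp at Cngb1. The calcium sensors Rcvrn, Guca1a and Guca1b, the GTPase accelerator Rgs9, the guanylate cyclase Gucy2f, the exchanger Slc24a1 and the transducin gamma gene Gngt1 also had gained peaks. None of the 14 had a P2 H3K4me3 peak at an end. At Pde6b a kept P17 peak of 4868 bp also reached within 1 kb of an end, although its P2 counterpart did not. Sag, which encodes rod arrestin, is the list's gene without a peak by this count. Its gained peak of 15064 bp (chr1:87800609-87815672) lies at an internal RefSeq start, over 1 kb from the annotated ends.

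Other photoreceptor structures followed. The outer segment and cilium list had 13 of 22 genes (59.1%) with a gained peak and 7 with a kept one. Its gained peaks ran from 2841 bp at Spata7 to 13698 bp at Prcd, a disc protein gene whose peak also covered the start of Cygb. They included Abca4, Impg1 and Impg2 (matrix proteoglycans), Mak (a ciliary kinase) and Cdhr1 (a cadherin at the base of the discs). The ribbon synapse list had 9 of 20 (45%), with the 11 others kept: Cplx3 and Cplx4 (complexins), Cabp4, Cacna1f and Cacna2d4 (the presynaptic calcium channel and its partners) and Slc17a7 (the vesicular glutamate transporter) were among the 9. For Unc13b the peak covered the start of its neighbour Fam214b. Lrit1 was counted through a peak of 8563 bp at its far end that covered the start of Lrit2. The gained peak at its own, internal RefSeq start (7440 bp) is not part of the count by ends.

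At the ends of genes for photoreceptor transcription factors, kept peaks were the main class. Of 14 photoreceptor transcription factor genes, 3 had a gained peak and 9 a kept one. The 3 were Prdm1, whose peak covered no start, Samd7 and Ankrd33. The count by gene ends leaves out gained peaks at internal RefSeq starts of Esrrb (7892 bp), a nuclear receptor gene without a peak at its ends, and of Rorb (10992 bp). Crx went from a P2 peak of 11638 bp to a P17 peak of 22398 bp, Nrl from 7642 to 13483 bp, and Otx2 from 15896 to 18554 bp. Mef2d (11369 to 17075 bp) and Thrb (3747 to 5243 bp) widened too. Neurod1 narrowed from 8306 to 7630 bp and Rorb from 9138 to 8380 bp, and Samd11 hardly changed (1721 and 1758 bp). All of these are kept peaks and not in the gained set. So are peaks that widened at Prph2, a rim protein of the discs (3980 to 27972 bp), Rom1 (5896 to 14680 bp) and Pdc (6525 to 14178 bp).

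Bipolar cells, the interneurons that receive photoreceptor input, had 7 of 20 genes (35%) with a gained peak, 3 kept, 1 lost and 9 without a peak. They were Grm6 (the ON bipolar glutamate receptor), Trpm1, Lrit3, Isl1, Bhlhe23, Grik1 (a kainate receptor subunit) and Rgs11. Cone phototransduction had 2 of 15 (Kcnv2 and Guca1a, which is shared with the rod list), and 10 of its genes had no peak at either age. The visual cycle list had 2 of 14, the retinol dehydrogenases Rdh8 and Rdh12.

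Shares of 4.55% for amacrine and horizontal cell genes and 5.56% for ganglion cell genes were near the 4.93% of all protein-coding genes. Müller glia and dividing cells had none, and in lists this small a 0 was not tested against that share. Among amacrine and horizontal cell genes 1 of 22 was counted, Slc6a9, through the start of Ccdc24, and among ganglion cell genes 1 of 18, the heavy neurofilament gene Nefh. Müller glia had 0 of 28 genes with a gained peak, 9 with a kept one and 10 with a lost one. The list of retinal progenitors and the cell cycle had 0 of 22, with 7 kept and 15 lost. Lists of cells from outside the neural retina had none at a gene end: 0 of 16 for microglia and blood (all 16 without a peak at either age), 0 of 14 for endothelium and pericytes, 0 of 14 for retinal pigment epithelium and 0 of 18 for lens. Trpm3, on the pigment epithelium list, had a gained peak of 4606 bp at an internal RefSeq start. Energy metabolism, immediate early, circadian clock and housekeeping genes had 2 of 18, 2 of 16, 2 of 16 and 1 of 16, with kept peaks the main class in each.

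**Figure D3:**
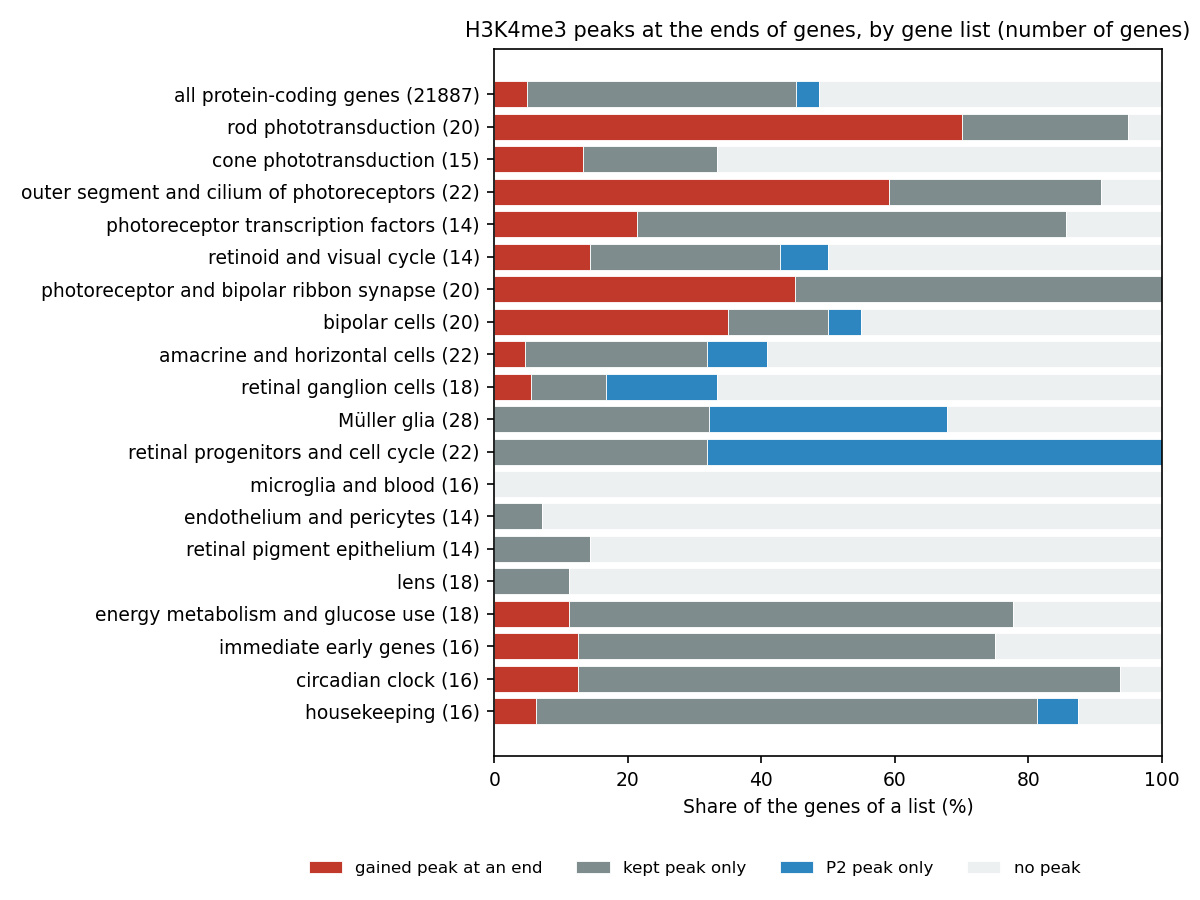
Share of the genes of each list (%, horizontal axis, number of genes in brackets) with a gained H3K4me3 peak within 1 kb of an end (red), only a kept peak (dark grey), only a P2 peak (blue) or no peak (light grey). The red part is 70% for rod phototransduction and 4.93% over all protein-coding genes, and there is none for Müller glia or progenitors.

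P2 H3K27ac differed widely among the gained peaks of one pathway. Over the 13 gained peaks at the ends of rod phototransduction genes, the share covered by P2 H3K27ac had a median of 29.5%. It was 70.7% at Gnat1, 56.7% at Grk1, 48.9% at Cngb1, 44.4% at Rgs9 and 32.8% at Rcvrn. It was 29.5% at Pde6b, 17.2% at Slc24a1 and 12.3% at Gucy2f. The peaks at Gngt1, Cnga1, Pde6a and Guca1a with Guca1b had none. So within 1 cascade the peak over the transducin alpha gene held P2 H3K27ac and the one at the channel alpha gene did not. The former also reaches Sema3f, and P2 H3K27ac at the start of Gnat1 itself was not read because its strand was not given. By P17 coverage was nearly even: 11 of the 13 were covered in full, Grk1 to 95.5% and Guca1a with Guca1b to 88%.

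The other lists differed in the same measure. Outer segment peaks had a median P2 coverage of 55.5% over 13 peaks, with 1 peak at 0, and 12 of 13 were covered in full at P17. Synapse peaks had a median of 78.2% over 9, with Cacna1f at 0, and 8 of 9 were covered in full at P17. The ninth was Lrrtm4, a postsynaptic adhesion gene, with 30% at P2 and no P17 H3K27ac. The synapse median is the value of the peak counted for Lrit1, which covers the start of Lrit2. The next value above it, 79.2%, is that of the peak counted for Unc13b, which covers the start of Fam214b. Peaks at starts of synapse genes were spread from 0 to 100% (Cacna2d4), so this median does not set the list apart. Bipolar peaks stood lowest at P17: a median of 38.1% over 7, with 2 covered in full (Trpm1 and Lrit3) and 2 without any (Grik1 and Rgs11). Isl1, Grm6 and Bhlhe23 had no P2 H3K27ac, and at P17 were covered to 38.1, 95.8 and 4.61%.

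**Figure D4:**
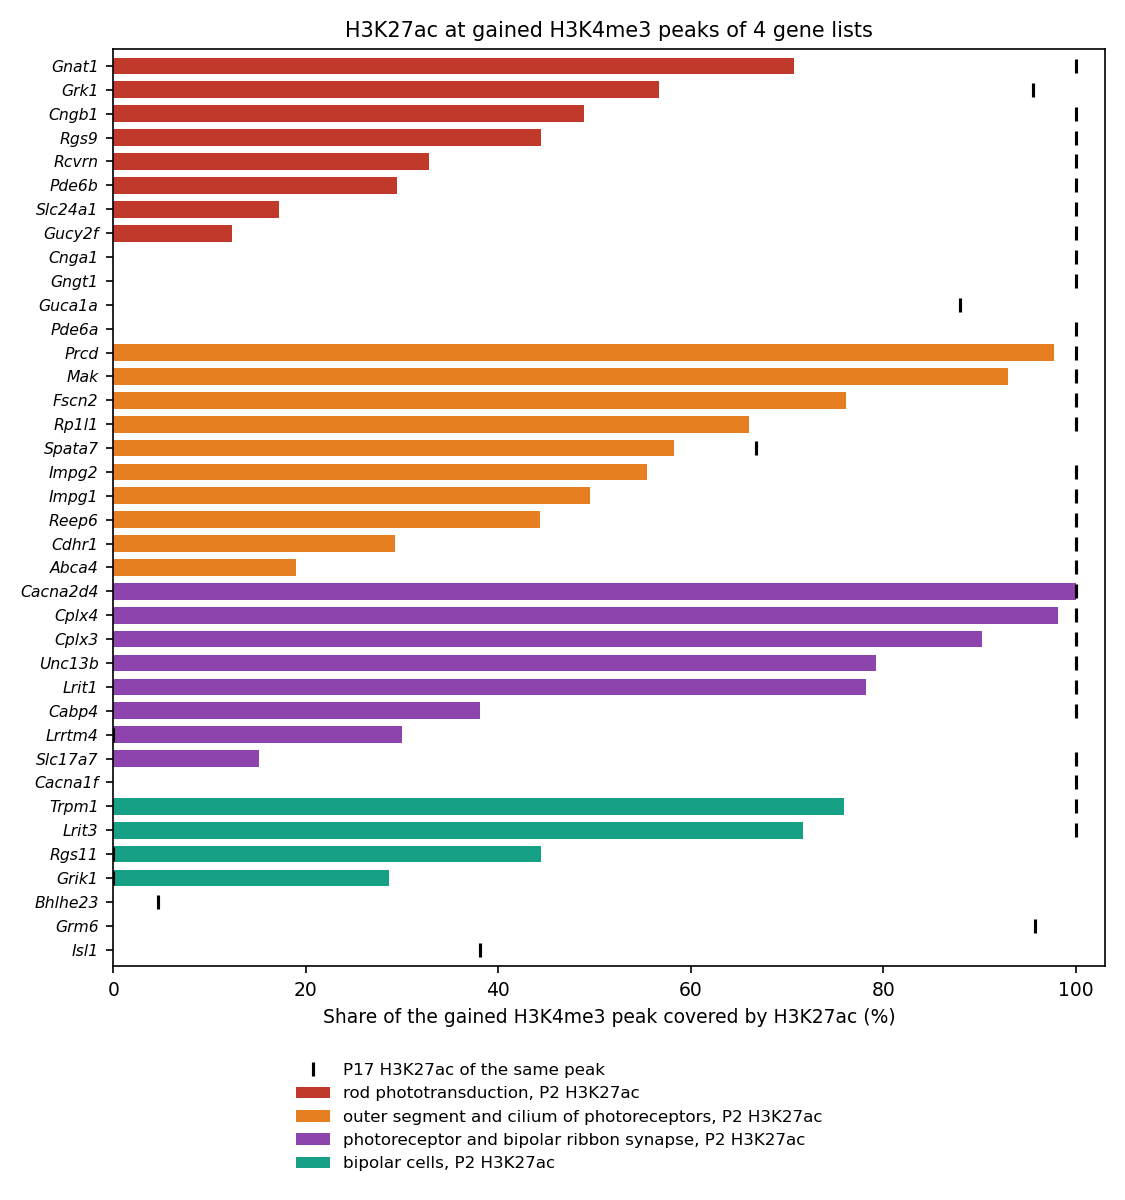
Share of each gained H3K4me3 peak covered by H3K27ac (%, horizontal axis) at P2 (bars) and at P17 (black ticks), 1 row per peak, named by a gene of the list, for most gained peaks of 4 gene lists. The P2 bars run from 0 to 70.7% for rod, 19 to 97.7% for outer segment, 0 to 100% for synapse and 0 to 75.9% for bipolar peaks. The P17 ticks stand at 100% for most photoreceptor and synapse peaks but at 38.1% or less for 4 of the 7 bipolar peaks.

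The maps show the shape of these regions. At Sag and Grk1 several short P2 H3K27ac peaks lay where P17 had one long H3K27ac peak and a new H3K4me3 peak. At Cplx3 the P2 H3K27ac peak at the start was long already. At Cnga1 no P2 H3K27ac lay within the gained peak. At Slc24a1 an upstream H3K4me3 peak was present at both ages, 5.64 kb from the gained one. At Isl1 there was no P2 peak of either mark in the window, and the nearest P2 H3K4me3 peak was 707 kb away.

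**Figure D5:**
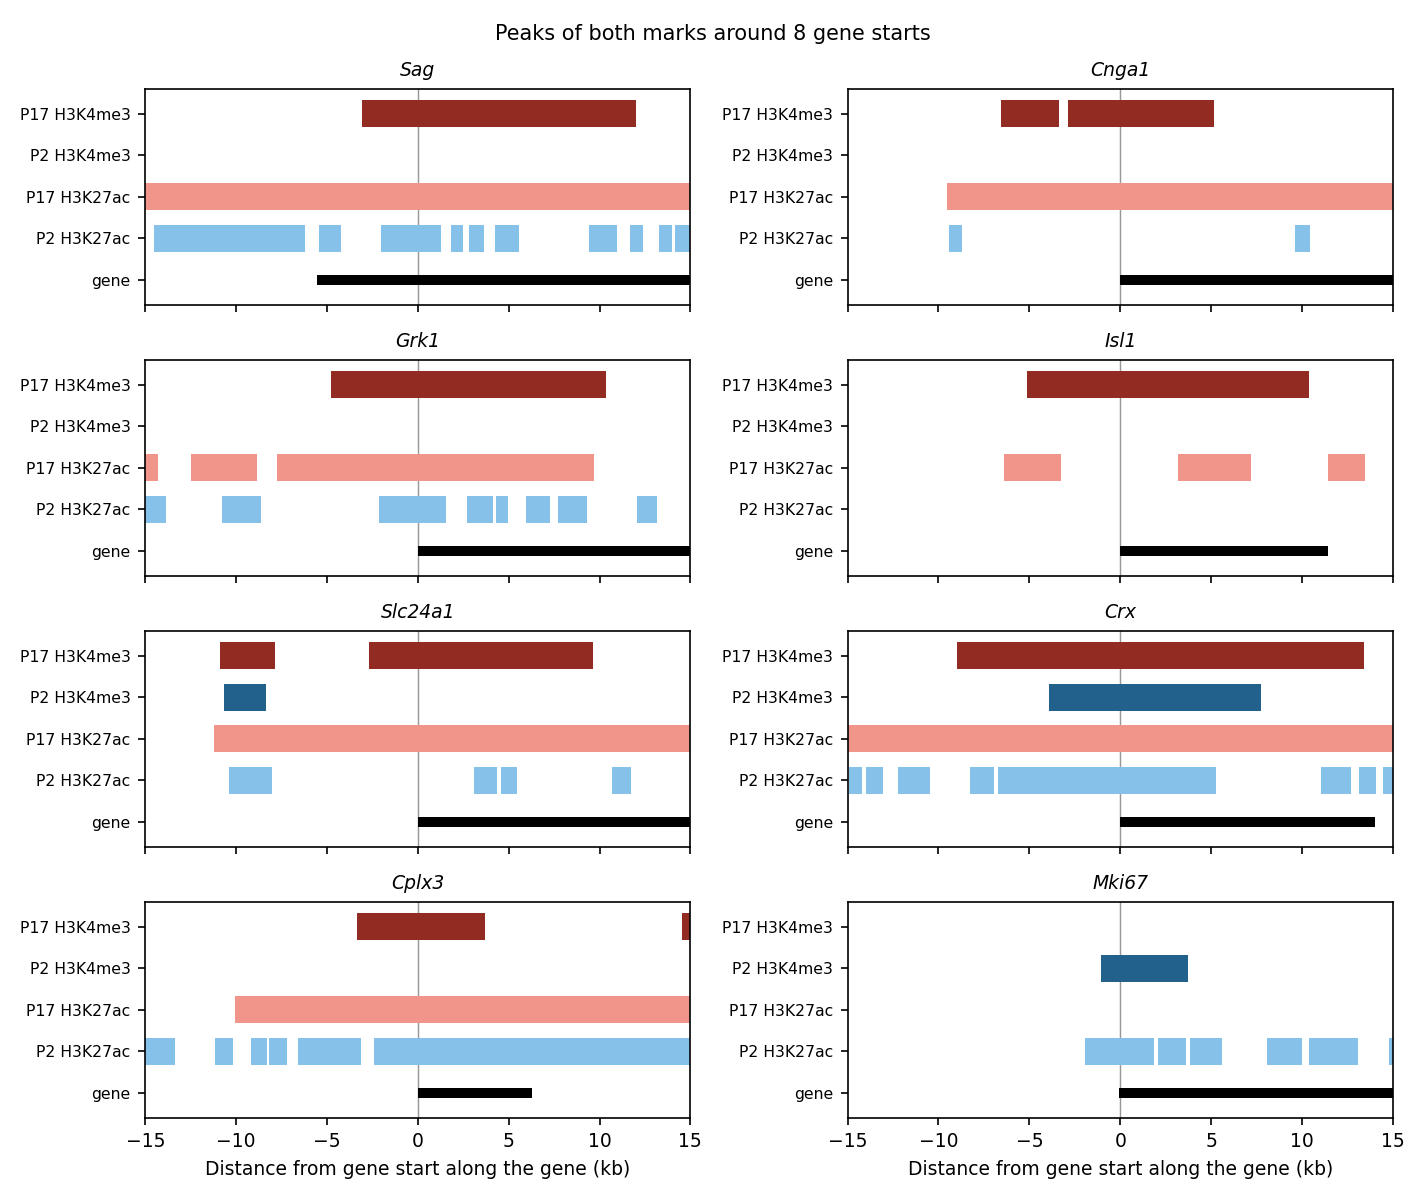
Peaks of both histone marks at P2 (blue) and P17 (red) around 8 gene starts, by distance from the start along the gene (kb, horizontal axis), with the gene in black; bars are listed peaks and carry no height. Sag, Grk1, Slc24a1, Cplx3, Cnga1 and Isl1 have a gained H3K4me3 peak at the start, whereas Crx has a kept peak and Mki67, a cell cycle gene, a lost one.

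The widest gained peaks were mostly at genes of the photoreceptor lists. First stood a peak of 20314 bp inside Gnb1, which encodes the transducin beta subunit (chr4:155520122-155540435), with its centre 28990 bp from the nearest gene end. It covered no start, 26.4% of it lay in P2 H3K27ac and all of it in P17 H3K27ac, while the promoter peak of Gnb1 was kept (6032 bp at P2, 7978 bp at P17). Among the next widest were Isl1 (15549 bp), Grk1, Sag and Gnat1. Then came Sfi1 (13887 bp), Prcd, Ptp4a3 (13578 bp, a phosphatase gene), Pde6a and Cplx4 (13547 bp each), Plekhb1 (13494 bp), Pde6b, Llgl2 (13182 bp) and Guca1a with Guca1b (13094 bp). Of the 31 gained peaks of 10 kb or more, 17 covered the start of a gene on one of the lists and 24 covered any start, against 26 and 110 of 122 kept peaks of that width. At P17, 30 of the 31 overlapped H3K27ac and 26 were covered in full by it, and at P2, 5 had none, among them Isl1, Sfi1, Pde6a and Guca1a with Guca1b. Of the 122 kept peaks, 121 overlapped P17 H3K27ac, 84 were covered in full by it and none lacked P2 H3K27ac.

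P2 H3K27ac was also listed at most gained peaks away from gene starts. It overlapped 87.8% of gained peaks centred at starts, 85.7% of those in gene bodies, 93% of those within 50 kb and 91.2% of those farther away. Over all P17 peaks of these classes the shares were 97.6, 95.2, 94.8 and 90.1%, so the gap to the background was found at starts and in gene bodies. Besides Gnb1 and Sfi1, wide peaks over 5 kb from an end in a gene body were in Atp2c1, a calcium pump gene (12334 bp, 43.7% in P2 H3K27ac), and BC034090 (11782 bp, 100%). The 5 widest far from protein-coding genes had Klhl6 (10108 bp), Ttc17 (7627 bp), Gm30733 (7420 bp), Gm44812 (6787 bp) and Cadm1 (6521 bp) as their nearest genes. P2 H3K27ac covered 98.4, 27.7, 98, 34.5 and 52.7% of them. The one nearest to Ttc17, at a distance of 56744 bp, holds the hairpin of miR-129-2 and, on the opposite strand, that of miR-129b.

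In all, 8 miRNA hairpins of the RefSeq table lay in gained peaks: Mir149, Mir6909, Mir6392, Mir7b, Mir129-2, Mir129b, Mir8120 and Mir1900. The mature forms of 2 that lay outside protein-coding genes are printed to identify them, with the seed (bases 2 to 8) in capitals.
miR-129-5p chr2:94241419-94241439 (- strand): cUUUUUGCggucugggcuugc
miR-7b-5p chr17:56243017-56243040 (+ strand): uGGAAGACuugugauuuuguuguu
These 2 seeds differ. The peak at Mir7b (2976 bp, nearest gene Fem1a) had no P2 H3K27ac and was covered to 91.7% at P17, and that at Mir129-2 was covered to 60.2% at P17.

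Some genes gained H3K4me3 at a start other than the one marked at P2. Of the 833 genes with a start in a gained peak, 220 had several RefSeq starts, and 55 of these (25%) had another start in a P2 H3K4me3 peak. The same share was not counted over all genes with several starts, so whether 25% is high or low is not known. Rorb, which encodes a nuclear receptor of photoreceptors, is one of the 55. Its start at position 19001117 of chromosome 19 (minus strand) lay in a gained peak of 10992 bp, and its start at 19111196 lay in a P2 peak of 9138 bp. Casz1, a zinc finger gene, had a P2 peak of 6122 bp at its upstream start and a gained peak of 9426 bp at the start at position 148889347 of chromosome 4. Slc12a5 (the neuronal potassium chloride cotransporter) and Srebf1 (a regulator of lipid synthesis) showed the same, with gained peaks of 3528 and 4542 bp. Conversely, 74 starts (69 genes) lay in P17 H3K4me3 without P2 H3K4me3 and yet not in a gained peak, because the P17 peak reached a neighbouring P2 peak. Pde6g, the inhibitory subunit of rod phosphodiesterase, and Nr2e3, a rod nuclear receptor, are not counted as gained. A kept P17 peak (16271 and 12011 bp) reached within 1 kb of an end of each, without a P2 peak there. No strand was given for Pde6g, so it is not among the 74 starts.

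A few gained peaks lay side by side. Counting neighbours up to 50 kb apart, 218 gained peaks (15.7%) fell in groups: 83 pairs and 17 groups of 3 or more. The same count was not made for kept or all P17 peaks, so whether gained peaks group more than others is not known. The longest group held 4 peaks at the zinc finger genes Zfp51, Zfp53 and Zfp948 over 119 kb of chromosome 17. Lrit1, Lrit2 and Cdhr1 formed a group of 3 over 47.8 kb (chr14:37051967-37099812). With a flank of 5 kb, 5 genes had 3 gained peaks each, and of these Osbp2 had no P2 H3K4me3 peak while Epb41l2 had 1. The X chromosome held 65 gained peaks, which is 23.5% of its P17 peaks, and autosomes had between 11.5% and 16.7%. It held 4.68% of gained, 2.57% of kept and 4.63% of lost peaks.

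Over all gained peaks, each of the 4 SOX lists overlapped a smaller share than over all kept peaks. P2 SOX8 overlapped 41 gained peaks (2.95%) and 27.6% of kept peaks (24.1% of all P17 peaks), and P2 SOX9 128 (9.21%) and 49.3% (43.5% of all). P17 SOX8 overlapped 104 (7.48%) and 18.6% (17% of all), and P17 SOX9 184 (13.2%) and 20.9% (19.8% of all). For P17 SOX9 this held by position at starts (7.93 against 18.2%), in gene bodies (20.5 against 31.8%) and farther from genes (11.8 against 24.3%, 4 of 34 and 9 of 37 peaks). It did not hold within 50 kb of genes (19.3 against 17.9%) or at the other ends (46.2 against 34%, only 6 of 13 and 17 of 50 peaks). With both H3K4me3 lists limited to their wider 50%, the gained shares were 13% for P2 SOX8, 29.4% for P2 SOX9, 14.2% for P17 SOX8 and 20.3% for P17 SOX9. The overlap went with width. P17 SOX9 overlapped 2.59, 6.05, 11 and 33.3% of gained peaks in 4 width classes of about equal size from narrow to wide, and 5.26, 7.83, 16 and 44.3% of kept peaks in the same width ranges. P2 SOX9 did not follow width in gained peaks (9.2, 10.4, 9.8 and 7.47%) but did in kept peaks (23.4, 32.7, 50.5 and 70.3%). Among peaks of 10 kb or more, P17 SOX9 overlapped 23 of 31 gained (74.2%) and 79.5% of 122 kept peaks, whereas P2 SOX9 overlapped 5 and 74.6%. Of the 13 gained peaks at the ends of rod phototransduction genes, 7 overlapped P17 SOX9, although SOX9 is known as a factor of Müller glia and progenitors. Those at Grk1, Gnat1, Pde6a, Pde6b, Cngb1 and Rcvrn were among them. Those at Gngt1, Cnga1, Rgs9, Gucy2f, Slc24a1 and Guca1a with Guca1b did not overlap it. None of the 7 gained bipolar peaks had P17 SOX9, a number too small to set against the 13.2% of all gained peaks. Their median width was 5078 bp, against 12349 bp for the rod peaks. IgG peaks were not analysed here, so these overlaps have no IgG level beside them.

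A minority of gained peaks lacked acetylation at P17. These 182 were looked up after their values were seen. The widest were Sfi1 (13887 bp), Lrfn5 (7026 bp), Lrrtm4 (6869 bp), Grin2b (6693 bp), Lrrtm3 (6163 bp) and Cdh8 (6061 bp). Sfi1 encodes a centrosomal protein and Grin2b a glutamate receptor subunit. The peak at Sfi1 lay 14044 bp from a gene end by its centre and was in none of the 6 other lists. Olfm2 (5563 bp), Adgrb1 (5540 bp) and Kcna1 (5413 bp, a potassium channel) were among the 57 without H3K27ac at either age, and 50 gained peaks were in none of the 6 other lists.

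The promoters of gained starts were poorer in CG than those marked at both ages, and richer than those never marked. Over the 300 bp from 250 before to 50 after the start, the median ratio of observed to expected CG was 0.649 (quartiles 0.451 and 0.805) for gained starts, 0.829 for starts marked at both ages, 0.247 for neither age and 0.567 for all. A ratio of 0.6 or more was found in 544 gained starts (57.1%), in 85.4% of those at both ages, in 16.1% at neither age and in 47.7% of all. P2 H3K27ac lay at 80.1% of the 408 gained starts under 0.6 and at 75.9% of those at or above it, a small gap. For starts with H3K4me3 at neither age the same shares were 26.6 and 41.2%, so there CG-rich starts had more P2 H3K27ac and among gained starts they did not. The 30 gained starts of the photoreceptor and synapse lists had a median ratio of 0.319, and 4 of them (13.3%) reached 0.6.

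Short motifs were counted in the same windows, on both strands, and no motif searched contains another. TAATCC was present at 78 of 952 gained starts (8.19%, interval 6.61 to 10.1), 5.02% of starts marked at both ages, 7.55% at neither age and 6.42% of all 21263. Within the photoreceptor and synapse lists it was present at 11 of 30 gained starts (36.7%, interval 21.9 to 54.5). TATAAA, the TATA box, was present at 7.56% of gained, 5.24% of both-age, 19.2% of neither-age and 12.6% of all starts. At the 30 list starts it was present in 26.7% (interval 14.2 to 44.4), which includes the neither-age share. GGGCGG, the core bound by SP and KLF factors, was present at 58.1, 70.3, 24.9, 46.2 and 20% of the same sets in that order. CACGTG, the E-box, was present at 11, 10.5, 5.43, 7.84 and 3.33%. Over all 952 gained starts the interval for TAATCC lay above the share of all starts, by a small margin, and included that of starts marked at neither age. The 30 list starts belong to genes that were chosen for their function.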

How the data were processed

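CUT&RUN peaks were deposited by the authors as 1 list per target and age, and 8 lists from wild-type retina were used. Per the submitters' processing notes, the build was GRCm38 and the tools named were Bowtie2 and SEACR. Their versions, the threshold, the use of IgG and how libraries were combined are not given in the sources used here. The deposited score is 0 in every peak, so only coordinates were used and depth is unknown. No filter for regions prone to false signal was applied here. A P2 list called less deeply or more strictly would make more P17 peaks count as gained, and this was not tested.

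Peaks were compared by overlap (1 bp or more) in Python 3.11.15 with numpy 2.4.6 and pandas 2.3.3. Genes, starts, promoters and miRNAs came from RefSeq (GRCm38.p6). Strand and starts were given for 17492 of 21887 genes (79.9%), and either end served otherwise. Exons and introns were not annotated. Of 338 list genes 337 matched. Shares have 95% Wilson intervals. The interval code was tested on simulated data.

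The peaks, gene lists and rules were chosen with earlier results of these data known. Named are list genes, the 15 widest gained peaks, and the 5 widest far from genes, deep in genes, without P2 H3K27ac or with P17 SOX9. Genes with the most gained peaks and the 5 peaks on each side of the rule's edge are also named. Others were chosen after their values were seen. Alternatives were the overlap rule, the gap, list length, the distance to a gene and autosomes only. Some genes that these rules name are not reported here.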

Additional observations from a re-analysis of the deposited data

How the results depend on the processing

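Over 14 values and 13 alternative settings, 84 of 104 recomputed values stayed within their interval or within 1.5 times the count, and 20 moved. Sharing 50% of the shorter peak, a 1 kb gap and a 1 kb minimum width gave 1394, 1376 and 1389 gained peaks against 1390. The values under these settings could therefore hardly move. Requiring a gap of 5 kb to P2 H3K4me3 lowered the share of gained peaks to 13.3%. Limiting both H3K4me3 lists to their wider 50% raised it to 34.1%, since a P2 peak can then drop out by its width, with 35.3% in gene bodies, 94.3% with P2 and 94.6% with P17 H3K27ac, a median width of 4358 bp and 1630 genes. Under that setting P2 SOX8 overlapped 13%, P2 SOX9 29.4%, P17 SOX8 14.2% and P17 SOX9 20.3%. The distance that defines a gene end set the position classes: 34.9% at a start and 53.4% in gene bodies at 500 bp, 69.5% and 19% at 2000 bp, and 72.5% at a start when the peak had only to cover one. P2 H3K27ac was at 21.2% with the shortened list and at 58.5% when 50% of the peak had to be covered, and P17 H3K27ac then at 83.2%. Counting the gene with 5 kb on either side gave 1644 genes. Under the settings run, the rod count ran from 13 to 17 of 20 genes and the outer segment count from 12 to 14 of 22. A rise past 1.5 times was not possible within the 20 rod genes. No paired analysis was possible because each target and age has 1 peak list, and for the same reason no replicate was left out.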
